A study of Mus musculus with 38 samples.

Results

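Genes of ketone body synthesis and export were measured in mouse liver, and 5 of them are described here: Acat1, Bdh1, Bdh2, Slc16a1 and Slc16a6. They are the rows of the deposited expected count table with these symbols, 5 of 21954 genes, and all 5 were among the 13786 genes with enough reads to be tested. The libraries came from livers of wild-type female C57BL/6 mice, 38 in 13 groups of diet and time. Calorie-restricted livers (CR) were sampled at 0 h (n = 2), 6 h (n = 3), 14 h (n = 3) and 22 h (n = 4), fasted livers (F) at 6, 14 and 22 h (n = 3 each), and livers of mice fed ad libitum (AL) at 0 h (n = 3), 6 h (n = 2), 14 h (n = 3) and 22 h (n = 3). A further pair of calorie-restricted groups was taken at zeitgeber time 18, one after a missed meal and one fed (n = 3 each). What the hours were counted from is not in the labels, nor whether replicates were separate mice, so p-values measure the spread between these samples, which may be technical.

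The ages in the labels rise with the order of the samples, over 8 to 35 months in the CR groups of the time course, 17 to 38 months in the F groups and 5 to 31 months in the AL groups, with 42 to 44 months in the missed-meal group and 39 to 41 months in the fed group. No group shares an age with another, so as labelled age and group cannot be told apart.

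Ketone bodies are made in liver mitochondria from the acetyl-CoA of fatty acid oxidation and are exported as fuel for other tissues when glucose and insulin are low. Acat1, mitochondrial acetoacetyl-CoA thiolase, joins acetyl-CoA into acetoacetyl-CoA, and the same enzyme works in isoleucine and ketone body breakdown. Bdh1, the mitochondrial 3-hydroxybutyrate dehydrogenase, converts acetoacetate into 3-hydroxybutyrate, while Bdh2 is a cytosolic enzyme with 3-hydroxybutyrate dehydrogenase activity that has also been described in the synthesis of a mammalian siderophore. Slc16a1 (MCT1) is a proton-coupled carrier of lactate, pyruvate and ketone bodies, and Slc16a6 (MCT7) is the family member whose loss in zebrafish blocks export of 3-hydroxybutyrate from hepatocytes.

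On GRCm38, Acat1 (ENSMUSG00000032047) lies on the minus strand at chr9:53580522-53610382 and Bdh1 (ENSMUSG00000046598) on the plus strand at chr16:31422280-31458901. Bdh2 (ENSMUSG00000028167) is at chr3:135281221-135304426 and Slc16a1 (ENSMUSG00000032902) at chr3:104638668-104658462, both on the plus strand. Slc16a6 (ENSMUSG00000041920) is on the minus strand at chr11:109450855-109473598. Its annotated exons share 1052 bases with exons of Amz2 and 48 bases with exons of Arsg, both on the opposite strand, and the libraries do not keep strand, so reads from the shared bases cannot be told apart.

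The RefSeq promoter table (GRCm38.p6) held entries for Bdh1, Bdh2 and Slc16a1. The 250 bases upstream of the start are shown for Slc16a1, which was lower at the later hours in fasted livers, and for Bdh2, which was lower in fasted than in AL livers, with an E-box (CACGTG, the same letters on both strands) in capitals. The Slc16a1 window is chr3:104638414-104638663 and the Bdh2 window chr3:135280971-135281220, both on the plus strand, read 5′ to 3′.
Slc16a1: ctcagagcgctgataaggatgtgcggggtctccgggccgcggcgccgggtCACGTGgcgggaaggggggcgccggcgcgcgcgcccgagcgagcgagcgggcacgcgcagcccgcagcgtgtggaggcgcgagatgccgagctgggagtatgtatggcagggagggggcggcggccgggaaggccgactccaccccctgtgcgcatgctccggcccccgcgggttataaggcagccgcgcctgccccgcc
Bdh2: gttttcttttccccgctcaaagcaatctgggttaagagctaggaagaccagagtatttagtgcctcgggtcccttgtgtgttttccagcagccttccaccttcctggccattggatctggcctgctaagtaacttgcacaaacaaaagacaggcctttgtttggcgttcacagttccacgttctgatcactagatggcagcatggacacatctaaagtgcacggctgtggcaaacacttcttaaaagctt
The Slc16a1 window holds 76.4% G and C and its E-box starts 200 bases upstream of the start site. The Bdh2 window holds 48.0% G and C and none of the motifs searched, against a median of 52.4% G and C over 32851 RefSeq promoter windows of this length. CACGTG was found in 6.02% of those windows. Neither window held the nuclear receptor half-site AGGTCA on either strand, which 14.0% of all windows hold. A match in letters is a description and not a binding site.

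Library totals ran from 17131271 to 30152301 expected counts. Of the 38 libraries, 7 stood apart from their labels. By the 1000 most variable genes, AL_0h replicate 3 resembled CR_0h more than its own group, and CR_6h, CR_14h and CR_22h replicate 3 each resembled the AL group of their time. By 14 clock genes, AL_0h replicates 2 and 3, CR_0h replicate 1 and AL_22h replicate 2 were nearest to another time than their own. Some of the results that rest on these libraries are also given without them. All 8 hepatocyte markers had enough reads to be tested, with summed group means of 96900 to 141000 CPM, counts scaled to the TMM-normalised library size.

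Per transcript length, on the deposited TPM scale that the authors rescaled, Acat1 and Bdh1 stood above the other members by median. Acat1 ran from 146 to 507 and Bdh1 from 83.7 to 413, so their ranges overlapped. Slc16a1 (5.93 to 52.2), Bdh2 (3.63 to 30.4) and Slc16a6 (0.438 to 15.6) overlapped too. Acat1 had a median of 189 over 38 libraries and Bdh1 one of 186, against 22.9 for Slc16a1, 16.3 for Bdh2 and 2.68 for Slc16a6. Bdh2, Slc16a1 and Slc16a6 were below Acat1 in all 38 libraries, and Bdh1 was below it in 25. All other levels here are CPM, which compare a gene between libraries and not genes with each other.

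The widest range among group means was that of Slc16a6, 13.2-fold between its highest and lowest group, followed by 3.41-fold for Slc16a1, 3.14-fold for Bdh2, 2.17-fold for Acat1 and 1.98-fold for Bdh1. Each of the 5 differed among the 13 groups in edgeR's quasi-likelihood test, with adjusted p-values of 0.000952 for Acat1, 0.0204 for Bdh1, 0.000223 for Bdh2, 0.000513 for Slc16a1 and 5.06e-06 for Slc16a6. Of all genes tested, 52.8% passed the same test, so passing it does not set these 5 apart.

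**Figure D1:**
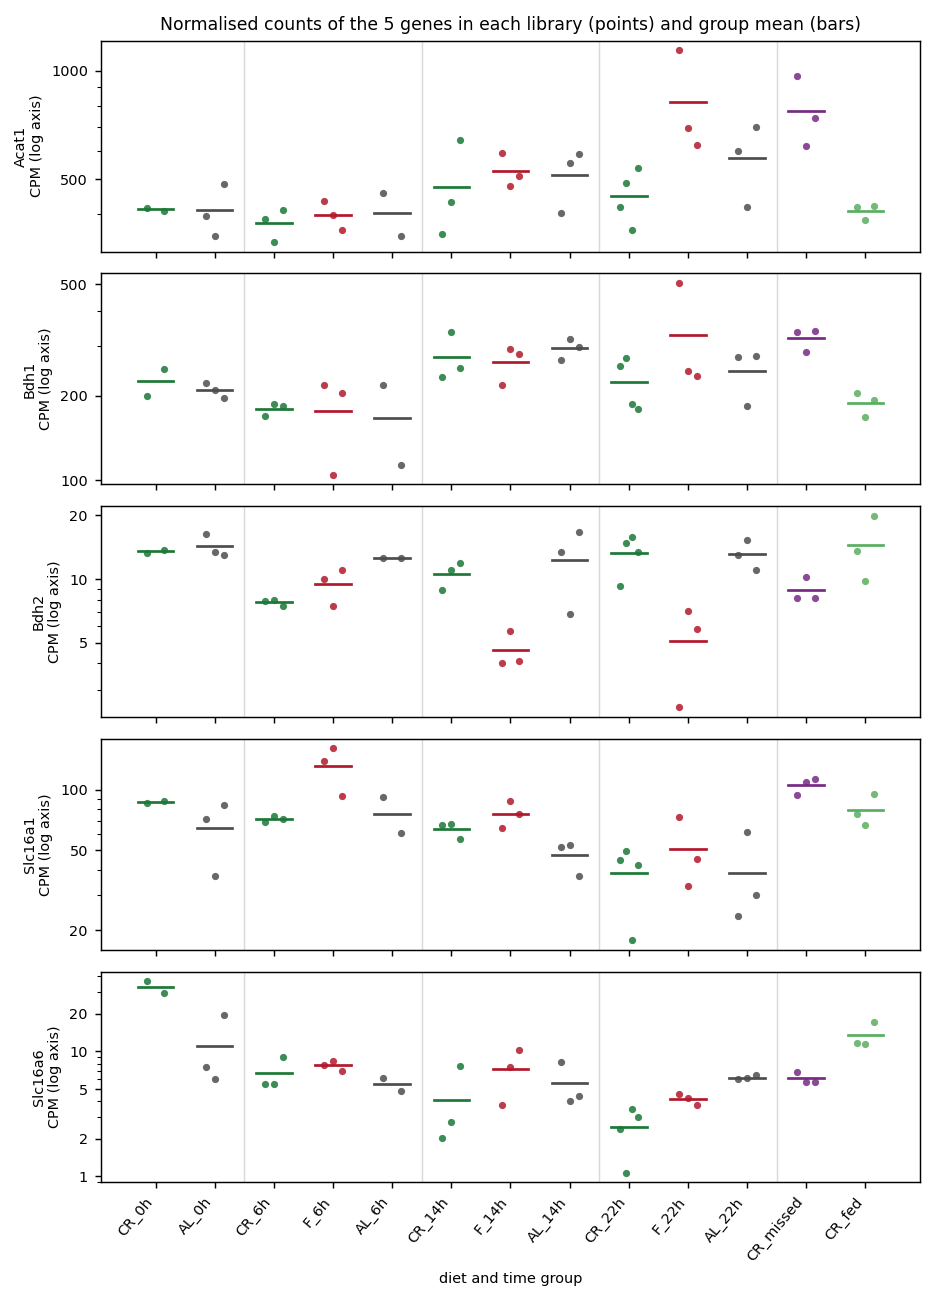
Normalised counts of the 5 genes (CPM, log axis) in each of the 38 libraries by diet and time group, with points for libraries and bars for group means. Slc16a6 is highest in the CR livers at 0 h, Bdh2 is lowest in fasted livers at 14 and 22 h, and Acat1 and Bdh1 are highest in fasted livers at 22 h and in missed-meal livers.

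Few members passed an adjusted p of 0.05 in any one pair of groups. Against AL livers of the same time, 0 of 5 passed in fasted livers at 6 h (2.34% of all genes did), 1 at 14 h (24.5%) and 1 at 22 h (11.5%). In CR livers against AL livers 0 of 5 passed at 0 h (0.479% of all genes), 6 h (0%), 14 h (0.0218%) and 22 h (4.88%). In CR livers against fasted livers the count was 0 at 6 h (6.80%), 1 at 14 h (17.1%) and 2 at 22 h (9.44%), and in missed-meal against fed CR livers it was 1 (12.5%). At an unadjusted p below 0.05, edgeR gave 1 of 5 members in the fasted livers at 6 h and 1, 1, 0 and 1 in the CR livers against AL livers at 0, 6, 14 and 22 h. DESeq2 passed 1 member, Slc16a6, in CR against AL livers at 0 h and at 22 h, and 0 at 6 and 14 h and in the fasted livers at 6 h. In CR against fasted livers at 6 h 1 of 5 had an unadjusted p below 0.05 and DESeq2 passed 0. The shares over all genes range widely, and the 5 members are too few to be read against them.

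**Figure D2:**
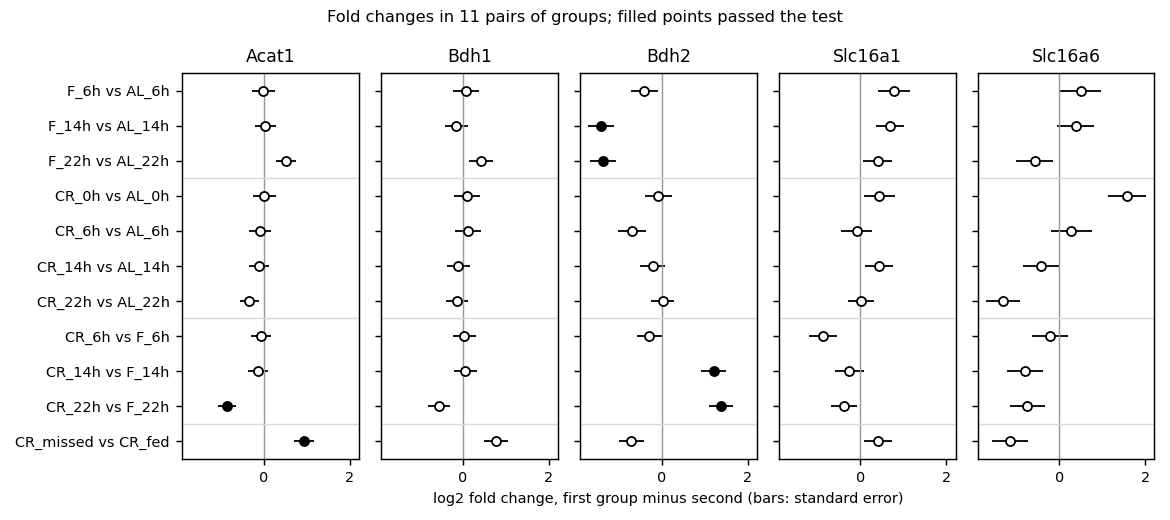
Log2 fold changes (first group minus second) of the 5 genes in 11 pairs of groups, with bars for the standard error and filled points for an adjusted p below 0.05. The Bdh2 points for fasted against AL livers at 14 and 22 h lie at -1.41 and -1.36, and the Acat1 point for missed-meal against fed CR livers lies at 0.92.

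Bdh2 was the only member that passed the test in fasted against AL livers, and it was lower in the fasted livers at 14 and at 22 h. At 14 h it had 4.00, 5.70 and 4.11 CPM in fasted livers, against 13.3, 6.87 and 16.6 CPM in AL livers. The 3 fasted libraries lay below the 3 AL libraries, although AL replicate 2 stood close to them. The fall was 2.66-fold (log2 fold change -1.41 ± 0.30 SE, adjusted p = 0.00114).

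At 22 h Bdh2 had 2.48, 7.06 and 5.80 CPM in fasted livers, against 13.04, 15.4 and 11.0 CPM in AL livers. The groups again did not overlap, and fasted replicate 1 was the lowest of all 38 libraries. Bdh2 was 2.57-fold lower in the fasted livers (log2 fold change -1.36 ± 0.30 SE, adjusted p = 0.0036). Both calls held under each of the 18 alternative settings tried for each of them, 6 of which left out a single library.

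At 6 h the same gene had 9.99, 7.46 and 11.0 CPM in fasted livers, against 12.6 and 12.5 CPM in AL livers. All 3 fasted values were below both AL values, but the difference was small beside its error (log2 fold change -0.40 ± 0.32 SE, adjusted p = 0.628). Whether the fasting difference itself changed with time was tested as an interaction, which Bdh2 did not pass (adjusted p = 0.603).

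Bdh2 was higher in CR than in fasted livers at the later times. It had 8.91, 11.0 and 11.9 CPM in CR livers at 14 h and 9.27, 14.8, 15.8 and 13.4 CPM in CR livers at 22 h, each above every fasted library of its time given above. Bdh2 was 2.31-fold higher in CR than in fasted livers at 14 h (log2 fold change 1.205 ± 0.30 SE, adjusted p = 0.00567) and 2.61-fold higher at 22 h (1.38 ± 0.28 SE, adjusted p = 0.00202). Both comparisons share the fasted libraries with those against AL livers. With only the 7 libraries of the 22 h comparison in the model its adjusted p was 0.0732, while the 14 h call held under all 18 alternatives. At 6 h Bdh2 overlapped between CR and fasted livers (log2 fold change -0.29 ± 0.29 SE, adjusted p = 0.628).

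Against AL livers Bdh2 in CR livers overlapped at 0, 14 and 22 h, with log2 fold changes of -0.08 ± 0.32, -0.21 ± 0.29 and 0.02 ± 0.27 (SE). At 6 h the CR livers had 7.87, 7.95 and 7.47 CPM, below the 12.6 and 12.5 CPM of AL livers, and this difference did not pass (log2 fold change -0.69 ± 0.32 SE, adjusted p = 0.994). In missed-meal livers it had 8.15, 10.2 and 8.17 CPM, against 13.6, 9.84 and 19.9 CPM in fed CR livers. These groups overlapped at the lowest fed library (log2 fold change -0.70 ± 0.29 SE, adjusted p = 0.108).

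Over time Bdh2 did not pass within the CR livers (adjusted p = 0.123), the fasted livers (0.0611, and 0.0208 with DESeq2) or the AL livers (0.971). Its group means ran from 14.4 CPM in fed CR livers to 4.61 CPM in fasted livers at 14 h. In that order each group overlapped with the next, except that the missed-meal livers (8.85 CPM) lay above the CR livers at 6 h (7.76 CPM), and these above the fasted livers at 22 h (5.11 CPM).

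Markers of other cells moved beside the Bdh2 difference at 14 h. Of 8 sinusoidal endothelial markers 6 were higher in fasted than in AL livers, with sums of 238 to 289 CPM in fasted livers and 76.2 to 171 CPM in AL livers. The 8 hepatocyte markers summed to 91500 to 112000 CPM in fasted livers and 137000 to 143000 CPM in AL livers, with 2 of 8 higher and 3 of 8 lower. Of 6 Kupffer markers 1 was higher, of 7 stellate markers 1 was higher, and of 5 tested lymphocyte markers 1 was lower. One more call was a pancreas marker, 1 of 3 tested, which was higher. At 22 h 1 of 8 endothelial markers was higher, with sums of 178 to 280 CPM in fasted livers and 162 to 218 CPM in AL livers. Of 8 hepatocyte markers 1 was higher and 2 lower at 22 h, and of 7 stellate markers 1 was higher. In CR against fasted livers at 14 h, 2 of 8 endothelial markers were lower, with sums of 179 to 244 CPM in CR livers and 238 to 289 CPM in fasted livers. There the hepatocyte markers, 2 higher and 1 lower of 8, summed to 126000 to 159000 CPM in CR livers. Of 5 cholangiocyte markers 1 was higher, with sums of 20.3 to 43.9 CPM in CR livers and 17.6 to 22.2 CPM in fasted livers. Of 3 tested pancreas markers 1 was lower, with list sums of 2.33 to 16.5 CPM in CR livers and 2.72 to 10.8 CPM in fasted livers. At 22 h 1 of 8 hepatocyte markers was higher and 1 lower in CR against fasted livers, and 1 of 5 cholangiocyte markers was higher, with sums of 17.6 to 84.6 CPM in CR livers and 17.7 to 25.4 CPM in fasted livers. No marker of these lists was at 0 in all 38 libraries, and whether one was at 0 throughout a single group was not checked. The part of cell makeup in these results was not tested, and in bulk tissue fewer cells of a type and less RNA per cell cannot be told apart.

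Acat1, the thiolase step, was higher in missed-meal than in fed CR livers. It had 965, 617 and 738 CPM in missed-meal livers, against 418, 384 and 420.3 CPM in fed livers. The groups were well separated, and the difference was 1.90-fold (log2 fold change 0.92 ± 0.24 SE, adjusted p = 0.0103). Without missed-meal replicate 1, the highest library, the log2 fold change was 0.73 and the adjusted p 0.0657. Erythroid markers moved with this comparison: all 3 were higher, with sums of 3130 to 9770 CPM in missed-meal livers and 580 to 1440 CPM in fed livers, and their part in the result was not tested. Of 8 sinusoidal endothelial markers 2 were higher, with sums of 220 to 257 CPM in missed-meal livers and 144 to 170 CPM in fed livers. Of 2 adipocyte markers tested 1 was lower, with sums of 0.0919 to 0.243 CPM in missed-meal livers and 0 to 33.5 CPM in fed livers. Of 8 hepatocyte markers 1 was higher, and of 7 stellate markers 1 was higher and 1 lower. The part of these markers was not tested either.

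In fasted livers at 22 h Acat1 had 1140, 693 and 623 CPM, against 599.9, 419.5 and 700.2 CPM in AL livers. Replicate 1 of the fasted group stood far above the other 2, which overlapped with the AL livers, and the difference did not pass (log2 fold change 0.51 ± 0.24 SE, adjusted p = 0.154). Against fasted livers the CR livers were lower, with 419, 487, 361 and 536 CPM at 22 h and no overlap (log2 fold change -0.86 ± 0.22 SE, adjusted p = 0.011). Fasted replicate 1 decided this call: without it the log2 fold change was -0.55 and the adjusted p 0.184. With only the compared libraries in the model the adjusted p was 0.129.

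Acat1 differed among the 3 times of fasting. The fasted livers had 435, 399 and 362 CPM at 6 h and 590.5, 478 and 511 CPM at 14 h, below the 3 values at 22 h given above. The test over time gave an adjusted p of 0.0266, and 2.86% of all genes passed it. The call ended without any 1 of the 3 libraries at 6 h or without fasted replicate 1 at 22 h, where the adjusted p reached 0.218. At 6 and 14 h Acat1 overlapped between the diets, with log2 fold changes between -0.14 and 0.03 in the 6 pairs of diets at these times. In CR against AL livers they were 0.01 ± 0.26 at 0 h and -0.35 ± 0.22 at 22 h (SE), and neither passed. Over time Acat1 passed in neither the CR livers (adjusted p = 0.655) nor the AL livers (0.589).

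Bdh1, the dehydrogenase of the last step, followed a similar order of groups without passing the test in any pair. It had 337, 286 and 340 CPM in missed-meal livers, against 204, 168 and 192 CPM in fed CR livers. All missed-meal libraries lay above all fed ones (log2 fold change 0.77 ± 0.27 SE, adjusted p = 0.0574). Same-numbered libraries of this comparison correlated weakly in their deviations from the group means (0.144 to 0.2). The labels do not say that the numbers pair samples. With the number as a block the adjusted p was 0.0477, or 0.00646 with only the 6 compared libraries in the model. Bdh1 also passed under some settings that used no block. DESeq2 gave 0.036, a model of those 6 libraries alone 0.0145, and removal of a trend with transcript length 0.0349. The remaining settings of all genes without a block gave 0.0535 to 0.0788. Every fit that left out 1 library of this comparison missed the threshold, at 0.0762 to 0.161.

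In fasted livers at 22 h Bdh1 had 505, 245 and 235 CPM, against 274, 184 and 277 CPM in AL livers. Apart from fasted replicate 1, the same library that was highest for Acat1, the groups overlapped (log2 fold change 0.42 ± 0.27 SE, adjusted p = 0.32), and without that library the log2 fold change was -0.03. Without AL_22h replicate 2, the lowest AL library and one apart by clock genes, it was 0.25. CR livers at 22 h had 255, 274, 186 and 179 CPM, with a log2 fold change of -0.56 ± 0.25 SE against fasted livers (adjusted p = 0.159). In the other pairs the log2 fold changes of Bdh1 lay between -0.16 and 0.12. Across the 13 groups the Bdh1 means ran from 166 CPM in AL livers at 6 h to 328 CPM in fasted livers at 22 h, and each group overlapped with the next in that order. The test over time gave Bdh1 adjusted p-values of 0.34 in CR livers, 0.128 in fasted livers and 0.474 in AL livers. The overlap of neighbouring groups held for Acat1 too, from 377 CPM in CR livers at 6 h to 819 CPM in fasted livers at 22 h.

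Over the 13 group means the log2 levels of Acat1 and Bdh1 had a Pearson correlation of 0.833, and of 0.687 over the 38 libraries. Acat1 and Bdh2 had correlations of -0.533 and -0.468. These values describe shared libraries with shared depth and scaling and carry no test.

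Among the exporters, Slc16a6 had the largest range of group means and changed over time in CR livers. In CR livers it had 36.5 and 29.2 CPM at 0 h, then 5.50, 5.45 and 9.09 CPM at 6 h, 2.04, 2.73 and 7.60 CPM at 14 h, and 2.40, 1.07, 3.47 and 2.98 CPM at 22 h. Both libraries at 0 h exceeded every other library in the series, and replicate 3 at 14 h stood above the other 2 of its group. The test over time in CR livers gave an adjusted p of 1.96e-06, a test that 20.6% of all genes passed, and the call held under each of 24 alternatives.

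AL livers had 7.49, 6.01 and 19.5 CPM of Slc16a6 at 0 h, 6.17 and 4.83 CPM at 6 h, 8.19, 4.03 and 4.42 CPM at 14 h and 5.97, 6.12 and 6.42 CPM at 22 h. The single high value belonged to AL_0h replicate 3, the library that resembled the CR livers, and the test over time did not pass (adjusted p = 0.479). Of the 5 members 0 passed over time in AL livers by edgeR, 1 had an unadjusted p below 0.05 and DESeq2 passed 0, while 0.276% of all genes passed.

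**Figure D3:**
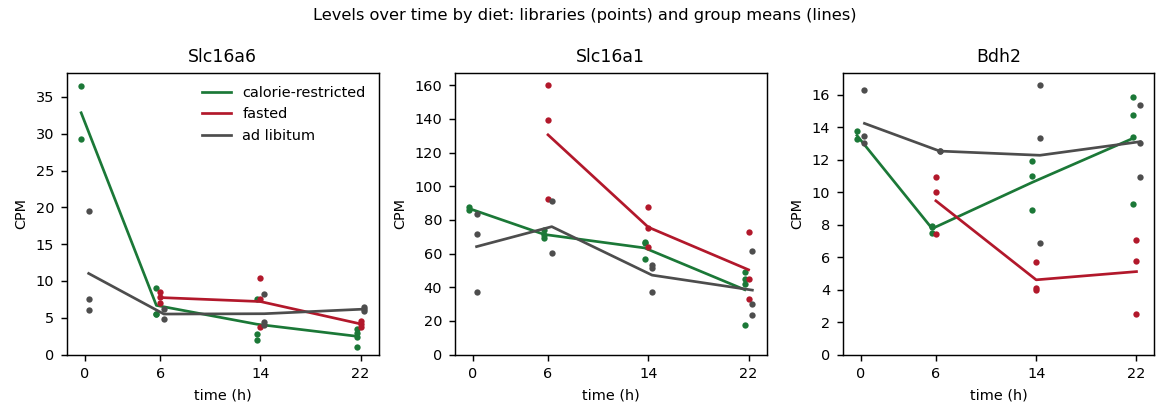
Levels (CPM, linear axis) of Slc16a6, Slc16a1 and Bdh2 over time in hours by diet, with points for libraries and lines through group means. The Slc16a6 line of CR livers starts at 32.8 CPM at 0 h and ends at 2.48 CPM at 22 h, and the Slc16a1 line of fasted livers starts at 130.5 CPM at 6 h and ends at 50.3 CPM at 22 h.

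Between CR and AL livers, Slc16a6 stood higher in CR livers at 0 h and lower at 22 h, with neither difference past the threshold. At 0 h its mean was 32.8 ± 5.10 CPM in CR livers (SD, n = 2) and 11.0 ± 7.43 CPM in AL livers (SD, n = 3), and the groups did not overlap (log2 fold change 1.57 ± 0.45 SE, adjusted p = 0.105). Without AL_0h replicate 3 the log2 fold change was 2.28 and the adjusted p 0.00895. Leaving out the 4 libraries apart by clock genes leaves 1 CR and 1 AL library at 0 h, which are assumed to vary like the other groups, and gave a log2 fold change of 1.96 and an adjusted p of 0.592. DESeq2 gave an adjusted p of 0.0371.

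At 22 h its mean was 2.48 ± 1.04 CPM in CR livers (SD, n = 4) and 6.17 ± 0.23 CPM in AL livers (SD, n = 3), again without overlap (log2 fold change -1.31 ± 0.40 SE, adjusted p = 0.0522). Without CR_22h replicate 3, the restricted library that resembled AL livers, the log2 fold change was -1.53 and the adjusted p 0.0225, and DESeq2 gave 0.0234. The change of the restriction difference over the 4 times had an adjusted p of 0.0664 (0.442% of all genes passed, and no other member had an adjusted p below 0.877), 0.00434 with DESeq2 and 0.000212 without the 4 libraries apart by diet. At 6 and 14 h the CR and AL livers overlapped, with log2 fold changes of 0.28 ± 0.47 and -0.42 ± 0.43 (SE).

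After a missed meal Slc16a6 stood lower than in fed CR livers, past the threshold under some settings only. It had 6.89, 5.70 and 5.74 CPM in missed-meal livers, against 11.8, 11.5 and 17.3 CPM in fed CR livers. No library of either group crossed into the other (log2 fold change -1.15 ± 0.42 SE, adjusted p = 0.0701). With the replicate number as a block the adjusted p was 0.0426, and 0.00554 with only the 6 compared libraries in the model. With the block 3 of 5 members passed, against 1 in the model of all libraries without it. Without a block 3 also passed under DESeq2 and with only the compared libraries. Over all genes the count with the block was 2091, against 1719 without it. With only the compared libraries it was 3058 with the block and 2087 without it. The fed CR livers had the next highest mean after the CR livers at 0 h, 13.5 CPM, and the 2 groups did not overlap. Further down the order of means, neighbouring groups overlapped except the AL livers at 6 h (5.50 CPM) and the fasted livers at 22 h (4.16 CPM), with the CR livers at 22 h lowest.

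Fasting went with no called difference in Slc16a6. It had 7.76, 8.45 and 7.02 CPM in fasted livers at 6 h, 3.74, 7.51 and 10.4 CPM at 14 h and 4.55, 4.21 and 3.70 CPM at 22 h. The log2 fold changes against AL livers were 0.49 ± 0.48, 0.38 ± 0.42 and -0.57 ± 0.43 (SE), with overlap at 14 h only, and the test over the 3 times of fasting gave an adjusted p of 0.405. Against fasted livers the CR livers had log2 fold changes of -0.21 ± 0.42 at 6 h, -0.80 ± 0.43 at 14 h and -0.74 ± 0.41 at 22 h (SE). The value at 14 h was -1.59, with an adjusted p of 0.0204, without CR_14h replicate 3, one of the libraries apart by diet.

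Amz2, which shares exon bases with Slc16a6 on the other strand, ran from 8.04 to 17.4 CPM over the 38 libraries and had a Pearson correlation with Slc16a6 of -0.105. In the CR livers at 0 h, where Slc16a6 was highest, Amz2 had 12.2 and 13.3 CPM. Arsg ran from 3.64 to 29.2 CPM, with a correlation of -0.219. It had 4.08 and 5.76 CPM in the CR livers at 0 h. Over the 13 group means the correlations with Slc16a6 were -0.092 for Amz2 and -0.432 for Arsg. In missed-meal against fed CR livers, where Slc16a6 stood lower, Amz2 was also lower, with means of 9.53 CPM in missed-meal livers and 14.0 CPM in fed livers (log2 fold change -0.56 ± 0.16 SE, adjusted p = 0.0236). In CR against fasted livers at 14 h Amz2 was higher (log2 fold change 0.50 ± 0.16 SE, adjusted p = 0.0341) and Slc16a6 stood lower, not past the test (adjusted p = 0.204). Arsg passed the test over time in CR livers (adjusted p = 0.00556), with means of 4.92, 12.7, 16.9 and 7.49 CPM at 0, 6, 14 and 22 h. Arsg was higher in fasted than in AL livers at 14 h (0.97 ± 0.36 SE, adjusted p = 0.0448) and 22 h (1.24 ± 0.36 SE, adjusted p = 0.023). It was lower in CR than in fasted livers at 22 h (-1.69 ± 0.33 SE, adjusted p = 0.00135). The part of shared reads in the Slc16a6 values was not tested.

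**Figure D4:**
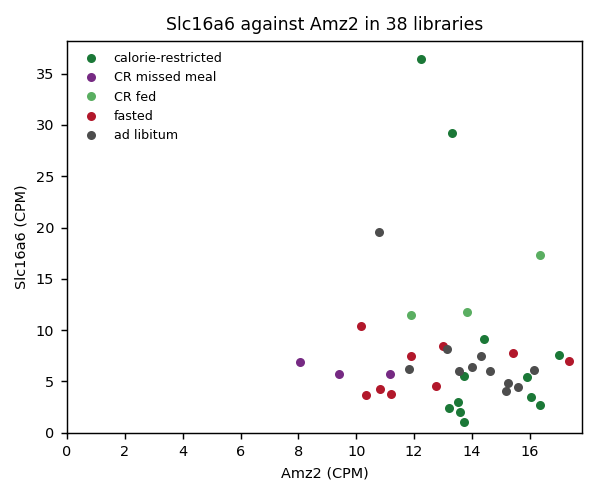
Slc16a6 against Amz2, the gene that overlaps it on the opposite strand, both in CPM on linear axes, with 1 point for each of 38 libraries coloured by diet. The 2 CR libraries at 0 h lie at 36.5 and 29.2 CPM of Slc16a6 and within the range of the other libraries for Amz2.

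Slc16a1 was highest in fasted livers at 6 h and lower there at the later hours. It had 139, 160 and 92.5 CPM in fasted livers at 6 h, 64.1, 87.7 and 75.1 CPM at 14 h, and 72.7, 33.3 and 45.03 CPM at 22 h. Every library at 6 h exceeded every later one. The means at 6, 14 and 22 h also ran downward in CR livers (71.3, 63.3 and 38.5 CPM) and in AL livers (76.0, 47.2 and 38.3 CPM), and the change of the fasting difference over time had an adjusted p of 0.933. The test over time in fasted livers gave an adjusted p of 0.0395, and held under 15 of 21 alternatives. It did not pass without replicate 1 or 2 at 6 h, replicate 3 at 14 h or replicate 2 or 3 at 22 h, with adjusted p-values of up to 0.168, or under limma with no minimum level (0.0585).

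The same transporter was lower at the later times in CR livers. It had 85.7 and 87.8 CPM at 0 h, 69.1, 73.8 and 71.1 CPM at 6 h, 66.3, 67.1 and 56.6 CPM at 14 h, and 44.9, 49.2, 17.8 and 42.1 CPM at 22 h. The 22 h libraries lay below all earlier ones, with replicate 3, a library apart by diet, the lowest of the series. The test over time gave an adjusted p of 0.0417 that held under 11 of 24 alternatives, and under 4 of the 12 that left out 1 CR library. It ended without either library at 0 h, replicate 1 or 2 at 6 h, replicate 2 at 14 h, or replicate 1, 3 or 4 at 22 h, with adjusted p-values of up to 0.123. AL livers had 71.6, 37.3 and 83.4 CPM at 0 h, 91.4 and 60.5 CPM at 6 h, 51.5, 53.0 and 37.0 CPM at 14 h and 23.5, 61.4 and 29.8 CPM at 22 h (adjusted p over time 0.419). The high value at 22 h belonged to AL_22h replicate 2, whose clock genes were nearest to 6 h.

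Fasted livers had more Slc16a1 than AL livers at each time by mean, and no difference passed. The means were 130.5 ± 34.6 CPM in fasted livers (SD, n = 3) and 76.0 ± 21.8 CPM in AL livers (SD, n = 2) at 6 h, where the groups did not overlap (log2 fold change 0.78 ± 0.37 SE, adjusted p = 0.332). At 14 h they were 75.6 ± 11.8 and 47.2 ± 8.87 CPM in fasted and AL livers (SD, n = 3 each), again without overlap (0.68 ± 0.33 SE, adjusted p = 0.132, and 0.0446 with only the compared libraries in the model). At 22 h the log2 fold change was 0.40 ± 0.33 SE with overlap, and 0.92 without AL_22h replicate 2 (adjusted p = 0.085). Removing a trend of fold change with transcript length, whose Spearman correlation over genes was 0.354 at 14 h and 0.332 at 22 h, left 0.36 and 0.18 for Slc16a1 at those times.

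By mean, CR livers had less Slc16a1 than fasted livers at 6 h, with no overlap (log2 fold change -0.87 ± 0.33 SE, adjusted p = 0.109, and 0.0493 with only the compared libraries in the model). At 14 and 22 h CR and fasted livers overlapped, with log2 fold changes of -0.26 ± 0.33 and -0.39 ± 0.31 (SE), and neither passed. The log2 fold changes of CR against AL livers were 0.44 ± 0.36, -0.09 ± 0.36, 0.42 ± 0.33 and 0.01 ± 0.31 (SE) at 0, 6, 14 and 22 h. In missed-meal livers Slc16a1 had 93.4, 109.5 and 112 CPM, against 75.2, 66.4 and 95.4 CPM in fed CR livers, an overlap of 1 library (log2 fold change 0.41 ± 0.33 SE, adjusted p = 0.462). Over the 13 groups its means ran from the 130.5 CPM of fasted livers at 6 h to 38.3 CPM in AL livers at 22 h, and the missed-meal livers (105 CPM) were the only group that did not overlap with the next in that order, the CR livers at 0 h (86.8 CPM).

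The differences of the fasted from the AL livers at 22 h and of the missed-meal from the fed CR livers were set against each other in 1 test. By edgeR 0 of 5 members passed and 0 had an unadjusted p below 0.05, DESeq2 passed 0, and 0.885% of all genes passed. The adjusted p-values were 0.584 for Acat1, 0.707 for Bdh1, 0.456 for Bdh2, 0.996 for Slc16a1 and 0.686 for Slc16a6. For a change of the fasting difference over time, edgeR and DESeq2 each passed 0 of 5 members and 0 had an unadjusted p below 0.05, with adjusted p-values of 0.603 to 0.933 (0.0653% of all genes passed). These misses do not show that the effects were alike.

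Of all genes tested, 1.2% were called higher and 1.13% lower in fasted against AL livers at 6 h, 11.8% and 12.7% at 14 h, and 6.06% and 5.40% at 22 h, with 6.34% higher and 6.13% lower in missed-meal against fed CR livers. The counts of the gene lists that follow stand beside these shares and carry no test of their own. Of 16 genes of fatty acid supply, 1 rose in fasted against AL livers at 6 h, 9 rose and 1 fell at 14 h, and 10 rose at 22 h, while 9 rose in missed-meal against fed CR livers. Their median log2 fold changes were 0.46, 0.63 and 0.83 in the fasted livers and 0.70 in the missed-meal livers, against -0.02, -0.04, -0.03 and -0.01 over all genes tested. Cpt1a, which brings long-chain fatty acids into the carnitine shuttle, rose by 2.06 ± 0.36, 1.86 ± 0.30 and 1.85 ± 0.30 (log2, SE) in fasted livers and by 1.59 ± 0.30 in missed-meal livers. Acadm, the medium-chain acyl-CoA dehydrogenase, rose by 1.37 ± 0.25 in fasted livers at 22 h and by 1.196 ± 0.25 in missed-meal livers. Hadhb, a subunit of the mitochondrial trifunctional protein, rose by 1.08 ± 0.25 and by 1.21 ± 0.25 in the same comparisons. Echs1, the short-chain enoyl-CoA hydratase, was the gene that fell at 14 h (-1.01 ± 0.23).

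Of 14 regulators of ketogenesis and genes that report on it, 3 rose in fasted livers at 6 h, 10 rose and 2 fell at 14 h, and 9 rose and 1 fell at 22 h, while 7 rose and 1 fell in missed-meal livers. Their medians were 0.65, 0.88, 1.08 and 0.86 in the same order. In CR against AL livers at 22 h 4 of the 14 rose (2.57% of all genes were called higher). Cyp4a14, a fatty acid hydroxylase under control of PPAR alpha, averaged 7461 ± 1853 CPM in fasted livers and 469 ± 178 CPM in AL livers at 22 h (SD, n = 3 each). Pdk4, a kinase that inhibits pyruvate dehydrogenase, rose by 2.79 ± 0.85 in fasted livers at 22 h and by 3.56 ± 0.88 in missed-meal livers (log2, SE). Fgf21, a hepatokine induced by fasting, averaged 23.2 ± 22.0 CPM in fasted livers and 0.743 ± 0.478 CPM in AL livers at 22 h, and 23.6 ± 12.7 CPM in missed-meal livers and 0.683 ± 0.514 CPM in fed CR livers (SD, n = 3 each). Ppara, the nuclear receptor that drives fatty acid oxidation genes, rose by 1.32 ± 0.34 in fasted livers at 22 h and by 2.07 ± 0.35 in missed-meal livers (log2, SE). Foxa2, a forkhead factor of the fasted liver, fell by 1.10 ± 0.24 and by 0.84 ± 0.23 in the same comparisons.

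Of 7 listed genes for ketone body use and cytosolic acetoacetyl-CoA 4 could be tested, and 2 fell in fasted livers at 6 h, 3 at 14 h and 3 at 22 h, while 2 fell in missed-meal livers and none rose in these 4 comparisons. Their medians were -0.93, -1.83, -1.31 and -0.82. Aacs, the cytosolic synthetase that turns acetoacetate into acetoacetyl-CoA for lipid synthesis, averaged 16.6 ± 2.85 CPM in fasted livers and 169.9 ± 93.3 CPM in AL livers at 22 h (SD, n = 3 each). Acat2, the cytosolic thiolase, averaged 39.4 ± 1.23 CPM in fasted livers and 105 ± 15.4 CPM in AL livers at 22 h, and fell by 1.42 ± 0.25 (log2, SE). Oxct1, the mitochondrial enzyme of ketone body use, had log2 fold changes of -0.64 ± 0.32 at 22 h and -0.06 ± 0.31 in missed-meal livers, neither past the test.

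Of 16 listed carriers of the monocarboxylate family and their chaperones, which leave out Slc16a1 and Slc16a6, 11 could be tested, and in each of these 4 comparisons 1 passed. Their medians were 0.17, 0.41, 0.11 and 0.04. Slc16a12 fell in fasted livers at 6 h (-0.93 ± 0.24), Slc16a13 rose at 14 h (2.51 ± 0.66) and in missed-meal livers (2.48 ± 0.62), and Slc16a7 (MCT2) rose at 22 h (0.98 ± 0.29; log2, SE). Slc16a13 is a rare transcript here, at 3.38 ± 0.40 CPM in fasted livers and 0.592 ± 0.162 CPM in AL livers at 14 h (SD, n = 3 each). Bsg, the chaperone that carries MCT1 to the membrane, had log2 fold changes between -0.26 and 0.17 in the 4 comparisons and passed in none.

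Acat1 also serves isoleucine breakdown, and Slc16a1 lactate and pyruvate transport. Of 13 genes of leucine and isoleucine breakdown, 0 passed in fasted livers at 6 h (1 at an unadjusted p below 0.05), 1 rose and 1 fell at 14 h, 1 rose at 22 h, and 2 rose in missed-meal livers, with medians of 0.11, 0.06, 0.05 and 0.05. Hsd17b10, a mitochondrial dehydrogenase of isoleucine breakdown, rose by 1.22 ± 0.22 at 22 h and by 0.78 ± 0.22 in missed-meal livers (log2, SE). Ppm1k, the phosphatase that activates the branched-chain ketoacid dehydrogenase, rose by 1.53 ± 0.31 in missed-meal livers. Of 9 genes of lactate and pyruvate handling, 1 fell at 6 h, 2 rose and 3 fell at 14 h, 1 rose and 2 fell at 22 h, and 1 rose and 1 fell in missed-meal livers. Pklr, liver pyruvate kinase, fell in all 4 comparisons, by 1.76 ± 0.46, 1.60 ± 0.42, 1.74 ± 0.42 and 1.85 ± 0.43. Ldha, lactate dehydrogenase A, rose by 0.86 ± 0.27 in missed-meal livers, where Slc16a1 did not pass.

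By likeness of log2 level over the 13 group means, among 7314 genes with at least 10 CPM on average, each member had a different set of nearest genes. Those nearest to Acat1 included Scp2 (Pearson r = 0.905), Hsd17b10 (0.883), Acad12 (0.876) and Nfs1 (0.865). For Bdh1 they included Glul (0.878), Bbox1 (0.857), Cops5 (0.819) and Mcm10 (0.813). The 5 nearest to Bdh2 were Rabif (0.925), Serpina6 (0.913), Lrp3 (0.913), Slc35a1 (0.911) and Akr1c20 (0.905). Slc16a1 had Nedd4l (0.913), Tspyl1 (0.879), Ppm1b (0.862), Snx33 (0.858) and Clpx (0.822), and Slc16a6 had Armt1 (0.918), Pwp2 (0.917), Etv6 (0.916), Pde12 (0.915) and Hist1h1c (0.910). With 13 points and so many genes searched, correlations of this size are a description with no test.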

How the data were processed

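RNA from female mouse liver was made into non-directional polyadenylated RNA libraries and sequenced as paired reads, per the labels' protocols. Per the labels, the authors mapped reads with Bowtie to Ensembl protein-coding genes (GRCm38) and estimated expected counts and TPM with RSEM 1.2.3. The deposited TPM were rescaled with EBSeq, so this table is a signal whose column sums run from 817166 to 1319582. The labels mention a batch effect but name no batch, so none was used as a term.

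The members and gene lists were chosen with earlier results of these data known. Expected counts were rounded, scaled by TMM and filtered with filterByExpr (13786 genes), and 1 model of 13 groups was fitted with edgeR 4.0.16 (R 4.3.3) by the quasi-likelihood test. P-values were adjusted by Benjamini-Hochberg over all genes tested, with a threshold of 0.05. Standard errors are the fold change over the square root of F. Fold changes are shrunk by edgeR's prior count. Alternatives used DESeq2 1.42.0, limma 3.58.1 on log2 of the rescaled TPM plus a pseudocount of 1 or 0.1, other libraries and filters, the replicate number as a block, and removal of a trend with transcript length.

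The members are described in every comparison, with up to 5 most similar genes each. From each list, up to 3 genes are named that passed in fasted livers at all 3 times or in missed-meal livers, the largest changes first. Echs1, Ppara, Foxa2, Oxct1, Slc16a12, Slc16a7 and Bsg were added after their values were seen. Deviations of same-numbered libraries correlated at 0.144 to 0.2 in all 3 pairs of the missed-meal comparison, and in no other comparison were all correlations over 0.1. The labels do not say that the numbers pair samples, and differently numbered libraries were not compared, so pairing was not shown. No pair of replicates agreed within sampling noise (lowest chi-square per degree of freedom 11.6). A simulation of 13786 genes took each gene's mean and its spread within groups from all libraries. Log2 changes of 1 or 2 were set in fasted livers at 22 h, in 100 genes each above a minimum level. Against AL livers 99% of changes of 2 and 49% of changes of 1 were recovered, and 1.99% of calls were false. The data held 1581 calls in that comparison and some libraries apart from their labels, so these rates need not carry over. Some genes of the pathway entered the tests and are not reported here.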

Additional observations from a re-analysis of the deposited data

How the results depend on the processing

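The calls of Bdh2 in fasted against AL livers at 14 and 22 h and in CR against fasted livers at 14 h, that of Slc16a6 over time in CR livers and those of the 5 members among the 13 groups held under every alternative run for them. The number of members called, out of 5, moved elsewhere. In fasted against AL livers it was 2 at 14 h with only the compared libraries and 2 at 14 and at 22 h without the libraries apart by diet or clock. In CR against AL livers at 0 h it was 1 under DESeq2, the replicate block, each limma setting and without the libraries apart by diet. At 22 h it was 1 under DESeq2, the replicate block, limma with a pseudocount of 0.1, without the libraries apart by diet, and without those apart by diet or clock. In CR against fasted livers it was 1 at 6 h with only the compared libraries or without those apart by diet or clock, 2 at 14 h without those apart by diet or by either, and 0 at 22 h with only the compared libraries. In missed-meal against fed CR livers it was 3 under DESeq2, the replicate block, only the compared libraries, and both of the last together (added after the data were seen), and 2 under limma with a pseudocount of 1, without the libraries apart by diet or by either, and with the length trend removed. Over time it was 1 in AL livers without the libraries apart by diet or clock. It was 1 in CR livers under the replicate block, only the compared libraries, without those apart by diet or by either, and with the length trend removed. In fasted livers it was 3 under DESeq2 and under limma with a minimum level at either pseudocount, where Bdh2 passed too, and 1 under limma with no minimum. For the restriction difference over time it was 1 under DESeq2, the replicate block, each limma setting and without the libraries apart by diet or by either. Leaving out 1 library gave 0 to 1 in CR against AL livers at 0 h and at 22 h, 1 to 2 in CR against fasted livers at 14 h and at 22 h, 0 to 1 in missed-meal against fed livers, 1 to 2 over time in CR livers, 0 to 2 over time in fasted livers and 0 to 1 for the restriction difference over time. Where this left a group with 1 library, that library is assumed to vary like the other groups. The cause of these moves was not tested.

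Uncalled log2 fold changes near 0 changed sign. With the length trend removed they were 0.0211 for Acat1 in fasted against AL livers at 6 h, 0.0094 for Bdh1 at 14 h, -0.0718 for Bdh1 in CR against fasted livers at 14 h and -0.0561 for Slc16a1 in CR against AL livers at 22 h. In CR against AL livers at 22 h the replicate block gave -0.0046 for Bdh2 and -0.0559 for Slc16a1, and leaving out the libraries apart by diet gave -0.0818 for Bdh2. Slc16a6 in CR against AL livers at 6 h was -0.0025 under limma with a pseudocount of 0.1 and -0.0037 without the libraries apart by diet. Leaving out 1 library gave these ranges. For Acat1 they were -0.18 to 0.21 and -0.10 to 0.13 in fasted against AL livers at 6 and 14 h, -0.11 to 0.15, -0.26 to 0.12 and -0.39 to 0.0646 in CR against AL livers at 0, 6 and 14 h, and -0.42 to 0.032 in CR against fasted livers at 14 h. For Bdh1 they were -0.30 to 0.66 and -0.0297 to 0.62 in fasted against AL livers at 6 and 22 h, -0.0633 to 0.24, -0.27 to 0.69 and -0.28 to 1e-04 in CR against AL livers at 0, 6 and 14 h, and -0.23 to 0.22 and -0.12 to 0.16 in CR against fasted livers at 6 and 14 h. For Bdh2 they were -0.14 to 0.0294, -0.50 to 0.067 and -0.0732 to 0.16 in CR against AL livers at 0, 14 and 22 h. For Slc16a1 they were -0.34 to 0.25 and -0.22 to 0.53 in CR against AL livers at 6 and 22 h.

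The number of genes called over the whole table also depended on the setting. The ranges in brackets do not include the fits that left out 1 library. In CR against AL livers it was 66 at 0 h (4 to 403 under the alternatives), 0 at 6 h (0 to 78), 3 at 14 h (1 to 608) and 673 at 22 h (82 to 2015). In fasted against AL livers it was 322 at 6 h (308 to 865), 3374 at 14 h (2520 to 3922) and 1581 at 22 h (1209 to 2181). In CR against fasted livers it was 2354 at 14 h (1299 to 2721) and 1302 at 22 h (226 to 1960). In missed-meal against fed CR livers it was 1719 (1534 to 3058, the highest with the block and only the compared libraries). Leaving out 1 library gave 1868 to 3723 at 14 h and 604 to 1610 at 22 h in fasted against AL livers. It gave 1283 to 2237 and 482 to 1636 in CR against fasted livers at 14 and 22 h. In missed-meal against fed CR livers it gave 779 to 1220. The replicate numbers were not shown to pair libraries, and in the missed-meal comparison same-numbered libraries correlated at only 0.144 to 0.2. With 2 to 4 libraries a group and a common dispersion of 0.0785, changes below log2 1 are often missed.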
